A study of Mus musculus with 6 samples.

Results

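The genes described here are 35 genes of the sarcomere scaffold, the Z-disc and the thin filament, chosen by symbol from what their proteins are known to do. All 35 were among the 14016 rows deposited for bulk RNA sequencing of injured mouse quadriceps, 14015 of which carry a gene symbol. The muscle was collected 7 days after volumetric muscle loss, a surgical removal of part of the muscle, in mice that received no implant. There were 3 WT libraries from C57BL/6 (B6) mice and 3 GATA-1 mutant libraries. The study names the mutants ΔdblGATA and describes them as deficient in eosinophils. As background, this mouse line carries a deletion in a regulatory site of Gata1. All 6 libraries shared the injury, the absence of an implant and the time point, and no uninjured muscle was analysed here. The study's methods describe adult female WT mice injured in both legs with the defect filled with saline, and neither age nor sex stands in the labels of the libraries.

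The sarcomere is the contractile unit of striated muscle. Thin filaments of actin, capped and regulated by tropomyosin, tropomodulin and leiomodin, are anchored in the Z-disc, while thick filaments of myosin are crosslinked at the M-band. Titin spans from Z-disc to M-band and acts as a molecular spring, nebulin runs along the thin filament, and desmin and the proteins at the ends of the fibre tie myofibrils to each other and to the membrane.

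The level of each gene is the authors' mean log2 CPM (read counts scaled to the size of the library, on a log2 scale) over all 6 libraries, which is 1 value per gene. No value per mouse was analysed here, so the levels carry no error, the depth of each library is unknown, and neither WT nor GATA-1 mutant muscle has a level of its own below. The genotypes were therefore not compared, and every difference between genes is given as a description without a test. Between genes, levels were compared per length, as the mean log2 CPM minus the log2 of the length in kilobases of the longest coding transcript. This second scale is named the per-kilobase level. In bulk muscle, fewer cells of a type and less RNA per cell cannot be told apart.

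The tissue carried the RNA of mature skeletal fibres, and markers of embryonic fibres were listed as well. The 10 skeletal muscle fibre markers were all listed, with a median mean log2 CPM of 12.30. The fast fibre contractile isoforms had a median of 12.85, and both lists hold some of the same genes, among them Myh4. The 6 embryonic fibre markers were also all listed, with a median of 7.32. Their values ran from 6.30 for Chrna1 to 10.32 for Actc1. Of 7 heart markers, Nppa, Nppb and Myl7 were not listed and Myh6 stood at -3.46, while Myl4, which embryonic skeletal fibres also use, stood at 7.26. A gene not listed did not pass the authors' filter or has no row under that symbol, and is not shown to be absent. The filter asked for a CPM above a limit in a minimum number of samples. A mean as low as that of Myh6 may therefore pool unlike libraries. RNA of other cells was present as well. The 7 fibroblast markers had a median of 9.90, the 7 listed macrophage markers 6.15 (Adgre1 was not listed), the 6 endothelial markers 5.56, the 5 adipocyte markers 5.97 and the 8 smooth muscle markers 4.52. Of 10 eosinophil markers only Ear2 was listed, at 0.13. What part these other cells have in the level of any sarcomere gene was not tested.

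The sarcomere genes were among the most abundant transcripts of the injured muscle. Their median mean log2 CPM was 8.86, against 4.03 for all listed genes, and the median of their percentiles was 98.8. By mean log2 CPM, 15 of the 35 stood in the top 100 genes, 17 in the top 1%, 29 in the top 5% and 34 in the top 10%. The exception was Ankrd2, at the 64.9th percentile. All 35 lay above the median of the listed genes, and 17 of the 141 genes in the top 1%, or 12.1%, were of this set. Together their levels, taken back to a linear scale, came to 64614 CPM, or 6.99% of the sum over all listed genes. That sum was carried by few genes, since the 5 most abundant (Acta1, Tpm1, Ttn, Tpm2 and Des) held 72.5% of it.

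Per kilobase the set also stood high. Its median per-kilobase level was 6.94, against 2.28 for all listed genes with a length, and 7 of the 35 were in the top 1%, 25 in the top 5% and 31 in the top 10%. The values ran from 4.25 for Xirp1 to 13.77 for Acta1, a 733-fold range. On the mean log2 CPM scale the range was 725-fold, from 4.80 for Ankrd2 to 14.30 for Acta1.

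**Figure D1:**
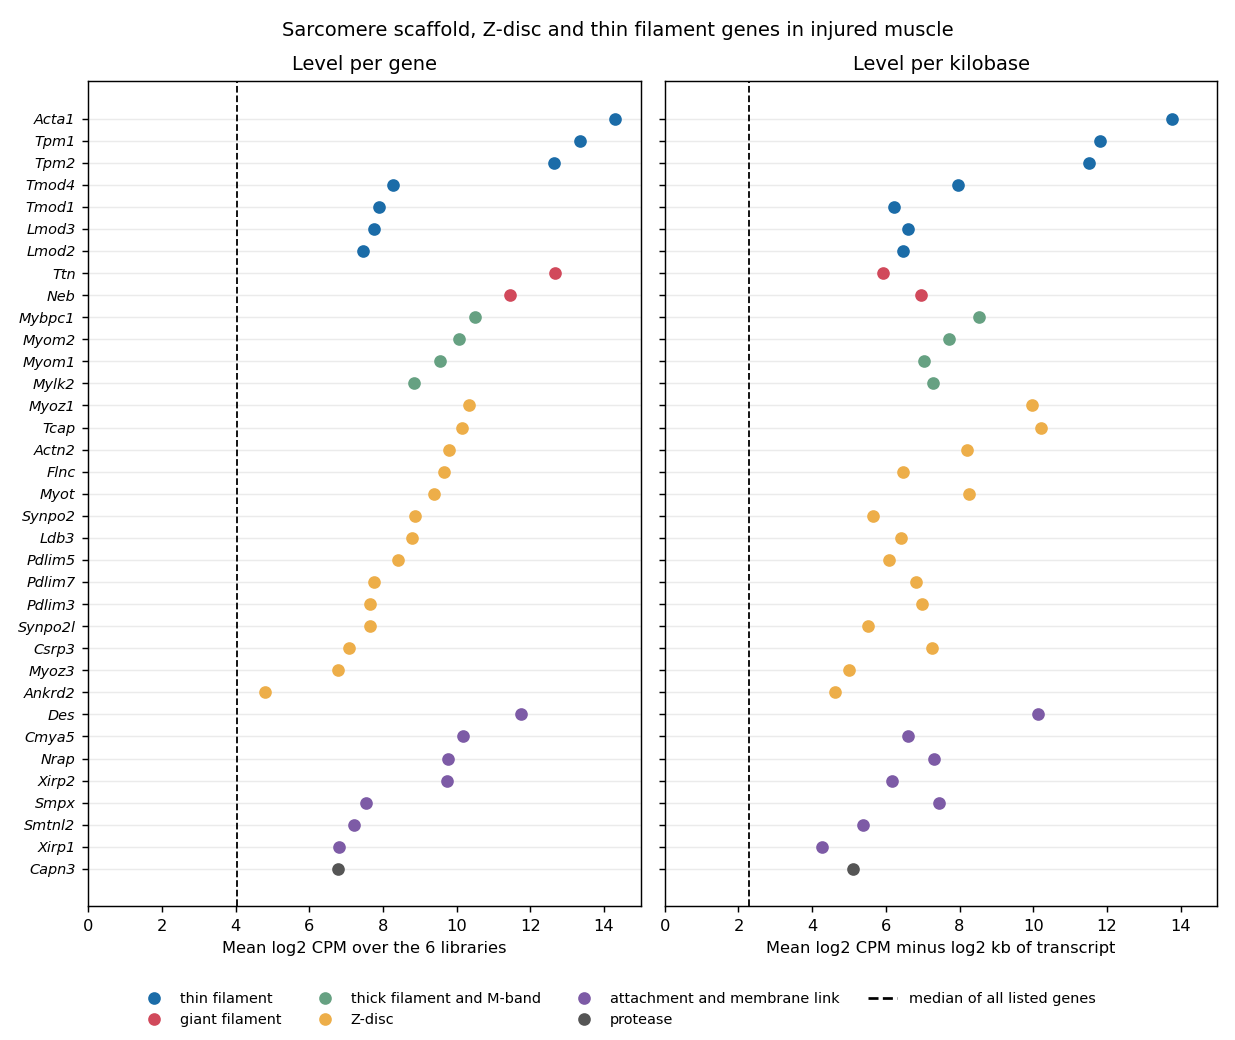
Levels of the 35 genes, grouped and coloured by role, as mean log2 CPM over the 6 libraries (left) and as mean log2 CPM minus log2 kilobases of transcript (right), with 1 point per gene, no error available and dashed lines at the medians of all listed genes (4.03 and 2.28). Every point lies to the right of both lines, and the giant genes Ttn and Neb move from 12.66 and 11.43 on the left to 5.92 and 6.94 on the right.

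The promoters of some of these genes hold matches to 2 motifs of muscle transcription. MEF2 factors and serum response factor, which binds the CArG box, are among the transcription factors that act in striated muscle, though not only there. The sequences from 250 bases before to 50 bases after the start of transcription were taken from RefSeq (GRCm38.p6), where 26 of the 35 genes had a window, 32 windows in all. Windows of Lmod3, Mylk2, Myom2, Myot, Myoz1, Myoz3, Neb, Tcap and Xirp1 were not used here. The 8 genes whose windows held a match to the MEF2 site or the CArG box are shown, each 5′ to 3′ on the gene's strand, with the matched site in capitals and up to 25 bases on either side.
Acta1: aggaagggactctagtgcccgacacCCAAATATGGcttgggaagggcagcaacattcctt
Ldb3: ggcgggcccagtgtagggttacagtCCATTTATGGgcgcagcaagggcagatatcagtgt
Myom1: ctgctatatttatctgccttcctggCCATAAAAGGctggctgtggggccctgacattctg
Ttn: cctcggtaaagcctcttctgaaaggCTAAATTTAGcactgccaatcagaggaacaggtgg
Xirp2: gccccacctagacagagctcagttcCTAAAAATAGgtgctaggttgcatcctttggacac
Synpo2: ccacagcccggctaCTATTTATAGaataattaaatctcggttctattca
Synpo2l: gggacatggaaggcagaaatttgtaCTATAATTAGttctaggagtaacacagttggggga
Capn3: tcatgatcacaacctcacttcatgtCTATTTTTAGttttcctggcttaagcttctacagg

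The first 3 sequences hold a CArG box and the other 5 a MEF2 site. They lie at chr8:123894814-123894873 (minus strand) for Acta1, chr14:34588682-34588741 (minus) for Ldb3, chr17:71019433-71019492 (plus) for Myom1, chr2:76982679-76982738 (minus) for Ttn, chr2:67445903-67445962 (plus) for Xirp2, chr3:123236351-123236399 (minus) for Synpo2, chr14:20668429-20668488 (minus) for Synpo2l and chr2:120463496-120463555 (plus) for Capn3. The capital letters begin 73 bases before the start in Acta1, 35 in Ldb3, 99 in Myom1, 166 in Ttn, 74 in Xirp2, 236 in Synpo2, 109 in Synpo2l and 72 in Capn3. Ldb3 has 2 overlapping windows that hold the same site, which lies 109 bases before the start of the other, so this site supplies 2 of the 4 windows with a CArG box counted next.

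Both strands were searched for 5 motifs, and the search was chosen after the levels had been seen. A MEF2 site was found in 5 of the 32 windows, or 15.6%, against 0.557% of all 32851 promoter windows, and a CArG box in 4, or 12.5%, against 1.63%. A MEF2 site or a CArG box was held by 28.1% of the sarcomere windows and 2.18% of all windows. The CAGCTG type of E-box, the hexamer bound by MyoD, was in 10 of the 32, or 31.3%, against 16.3%. The M-CAT element CATTCC was in 8, or 25%, against 14.7%, and TATAAA in 4, or 12.5%, against 13.6%. Over the 13262 windows of listed genes the shares were 0.475% for the MEF2 site, 1.32% for the CArG box, 15.9% for the E-box, 12.4% for the M-CAT element and 7.60% for TATAAA, so the direction for TATAAA turned with the background. The excerpt of Synpo2 also holds TATAAA on 1 strand, overlapping the MEF2 match, and that of Acta1 an M-CAT element. The letters TATAAA can lie within either of the longer motifs. Some genes have more than 1 window, so the windows are not independent, and a match in letters is a description, not a shown binding site. The mean log2 CPM of the 8 genes ran from 14.30 for Acta1 to 6.77 for Capn3.

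Among the 7 thin filament genes, the actin and both tropomyosins stood far above the proteins that cap and regulate the filament. Acta1, the skeletal alpha-actin that forms the filament, had a mean log2 CPM of 14.30 and was the 4th most abundant of all listed genes. Tpm1 and Tpm2, the tropomyosins that lie along actin and gate its contact with myosin, had 13.34 and 12.63. Their per-kilobase levels of 11.81 and 11.51 differed by 0.30, with 1 length used for Tpm1 although it has 16 coding transcripts. The group as a whole held 4.10% of the summed levels of all listed genes, most of the set's 6.99%.

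The capping and nucleating proteins were lower by several log2 units. Tmod4, the tropomodulin that caps the slow-growing (pointed) end of the filament in skeletal muscle, had a mean log2 CPM of 8.28, and Tmod1, the tropomodulin of striated muscle and red cells, 7.88. Per kilobase, Tmod4 stood at 7.95 and Tmod1 at 6.22, a difference of 1.73 (0.93 with the median length of coding transcripts). Of the 31-base words of the Tmod1 transcript (every stretch of 31 bases in it), 40.2% also occur in transcripts of Tstd2, so its value is uncertain. Lmod3 and Lmod2, leiomodins that act at the same end of the filament, had 7.75 and 7.46, and their per-kilobase levels of 6.60 and 6.47 were 0.13 apart.

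Ttn and Neb, the genes of titin and nebulin, were high by level, and their place per length depended on the length used. Ttn, with a transcript of 106824 bases in 347 exons, had a mean log2 CPM of 12.66 and ranked 18th among all genes. Neb, with 22489 bases in 157 exons, had 11.43 and ranked 34th. With the longest coding transcript, they stood at 5.92 and 6.94 per kilobase, places 28 and 18 of the 35. With the median length of a gene's coding transcripts, they stood at 11.57 and 9.88, above the set's median of 7.37 on that scale. Those median lengths are 2130 bases for Ttn and 2936.5 for Neb, against 105639 and 21456 coding bases in the longest transcripts. A transcript of the median length cannot hold the whole coding sequence, so the values on that scale are likely too high for both genes. Acta1 exceeded Ttn by 7.85 and Neb by 6.83 on the per-kilobase scale, and Tcap, whose protein telethonin binds the Z-disc end of titin, exceeded Ttn by 4.30. With the median length, Acta1 exceeded Ttn by 2.69 and Neb by 4.38. Ttn then stood above Neb by 1.69 and the difference Tcap minus Ttn was -1.35, so neither of these 2 directions holds under both lengths. Nebl, the relative of nebulin that is used in heart, stood at -3.31 per kilobase, and Neb was 10.25 above it (10.95 with the median length). The mean log2 CPM of Nebl was -0.29, at the 6.7th percentile of listed genes, so the size of this distance is uncertain.

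The 4 thick filament and M-band genes lay close to each other per kilobase. Mybpc1, the slow type of myosin-binding protein C, had a mean log2 CPM of 10.49. Myom2 and Myom1, myomesins that crosslink myosin at the M-band, had 10.06 and 9.54, and Mylk2, the skeletal muscle kinase of myosin light chains, 8.84. Their per-kilobase levels ran from 7.04 (Myom1) to 8.52 (Mybpc1). Within their families, Mybpc1 was 2.43-fold lower per kilobase than its fast relative Mybpc2, while Myom1 was 2.69 log2 units above Myom3. Mylk2 was 5.28 above Mylk (4.55 with the median coding length), the kinase of smooth muscle and other cells, and 10.24 above Mylk3, the heart kinase. The mean log2 CPM of Mylk3 was -1.08, at the 2.4th percentile of listed genes, so the size of that distance is uncertain.

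**Figure D2:**
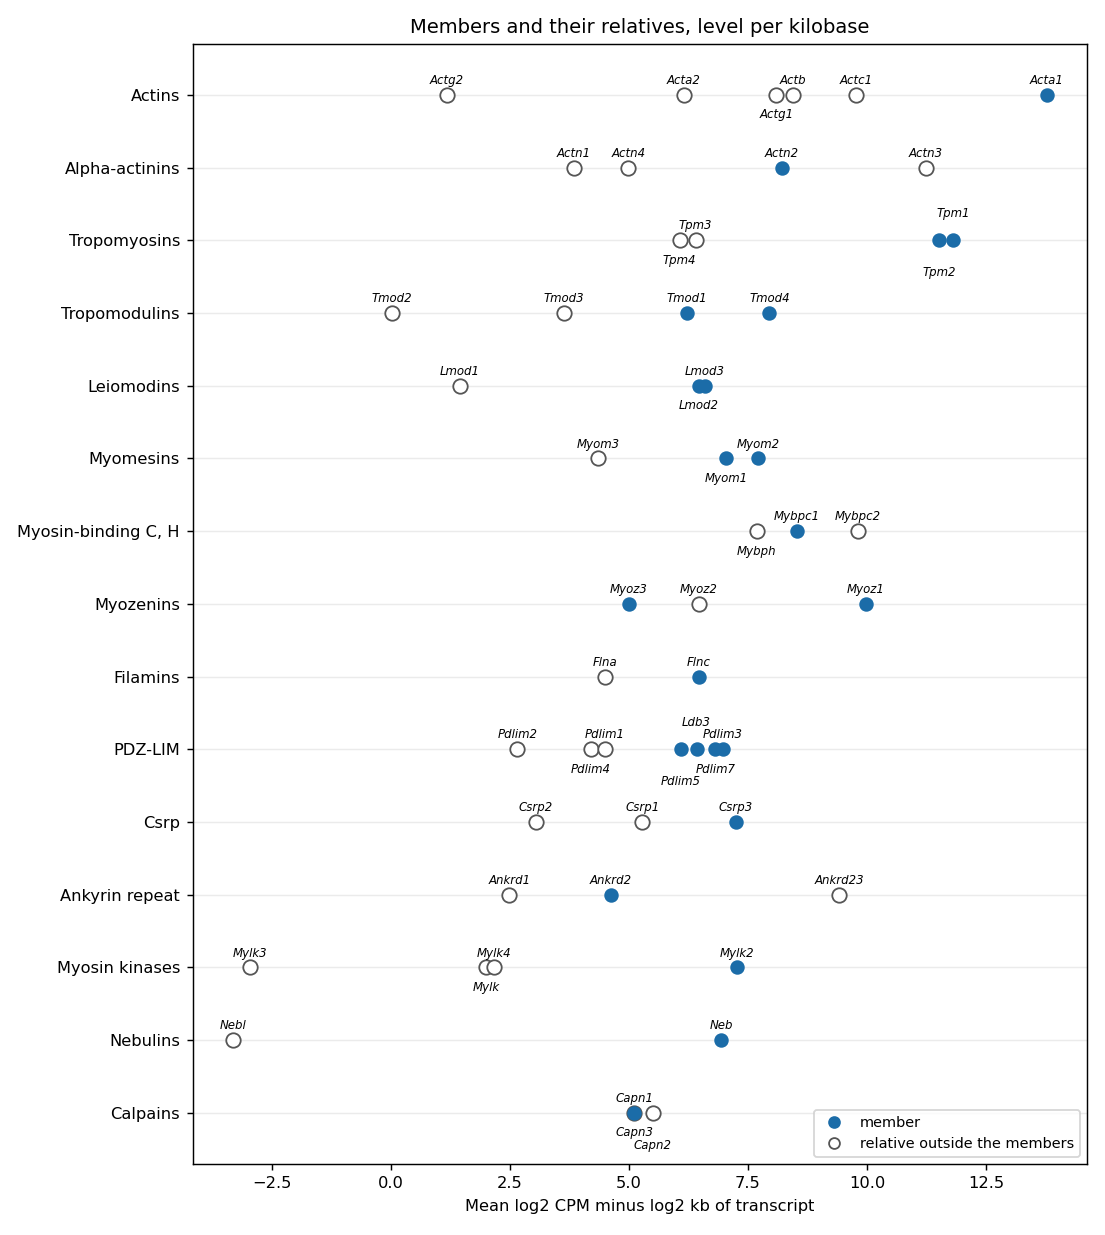
Per-kilobase levels (mean log2 CPM minus log2 kilobases of transcript) of genes of the set, filled, and of relatives outside it, open, with 1 row per gene family and 1 point per gene, without error. The set's gene is the highest of its row in most families, but Actn3 at 11.24, Mybpc2 at 9.80, Ankrd23 at 9.41 and Capn2 at 5.50 stand above Actn2, Mybpc1, Ankrd2 and Capn3.

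The 14 Z-disc genes ran from 10.34 for Myoz1 to 4.80 for Ankrd2 in mean log2 CPM. Myoz1, a myozenin (calsarcin) that tethers calcineurin to alpha-actinin in fast fibres, and Tcap, with 10.14, led them. Per kilobase, Tcap stood at 10.22 and Myoz1 at 9.97, the highest of the Z-disc. Myoz3, another myozenin, stood at 5.00, 31.4-fold lower than Myoz1, and Myoz2, the myozenin of slow fibres and heart, at 6.46.

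Actn2, the alpha-actinin that crosslinks actin at the Z-disc of all fibre types, had a mean log2 CPM of 9.80. Per kilobase it was 8.18-fold lower than Actn3, the alpha-actinin of fast fibres, and 3.22 log2 units above Actn4 and 4.36 above Actn1, which other cells use. With the median coding length it was 1.93 above Actn4. Flnc, the muscle filamin, and Myot, myotilin, both bind alpha-actinin or actin at the Z-disc and had 9.64 and 9.39. On the per-kilobase scale Flnc, with 9038 bases, was at 6.47 and Myot, with 2209 bases, at 8.25. Flnc stood 1.98 above Flna, the filamin of many other tissues.

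Proteins with PDZ and LIM domains, which dock signalling and structural partners at alpha-actinin, had a mean log2 CPM of 8.78 (Ldb3), 8.41 (Pdlim5), 7.75 (Pdlim7) and 7.66 (Pdlim3). Their per-kilobase levels were 6.42, 6.09, 6.81 and 6.97. The order of Pdlim3, Pdlim5 and Pdlim7 turned with the transcript length used and is not read here. Synpo2 and Synpo2l, actin-bundling proteins of the Z-disc, had 8.86 and 7.64 by level and 5.66 and 5.51 per kilobase, close to each other on the second scale.

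Csrp3 and Ankrd2, which are linked to the sensing of stretch, were with Myoz3 (6.78) the lowest of the Z-disc by level. Csrp3, muscle LIM protein, had a mean log2 CPM of 7.09, but with a transcript of 899 bases its per-kilobase level was 7.24, against the set's median of 6.94. It was below the set's median under both other lengths, at 5.81 against 6.60 with the longest transcript of any kind and at 7.28 against 7.37 with the median coding length. Ankrd2, an ankyrin repeat protein that shuttles between the titin region and the nucleus, was the least abundant of the 35 at 4.80. Its per-kilobase level of 4.62 was 2.13 above Ankrd1, its relative of heart and stressed muscle. Ankrd23, another relative, was listed 27.8-fold higher than Ankrd2 per kilobase, but 89.7% of its 31-base words also occur in another gene model (Gm42417), so its value is uncertain.

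Of the 7 genes grouped here under attachment and membrane link, Des was the most abundant. Des, the intermediate filament protein of muscle, had a mean log2 CPM of 11.74 and ranked 30th, and its per-kilobase level of 10.14 was 1.82 above Vim, the intermediate filament protein of fibroblasts and immune cells. Cmya5 (myospryn), a large protein at the costamere that binds desmin, had 10.17. Nrap, which joins actin to the membrane at the end of the fibre and in growing myofibrils, had 9.76.

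The Xin proteins Xirp2 and Xirp1, actin-binding proteins of cell junctions, had a mean log2 CPM of 9.74 and 6.80, and per kilobase Xirp2 at 6.15 was 1.90 above Xirp1 at 4.25, the lowest value of the set. With the median coding length the difference was 0.98, and Xirp1 at 5.18 stood above Myoz3 (5.00) and Ankrd2 (4.64). Smpx, a protein of 85 residues at the costamere, had 7.55 by level and 7.43 per kilobase. Smtnl2, a smoothelin-like protein, had 7.22 by level and, at 5.38 per kilobase, was 0.32 above Smtn. Of the words of Cmya5, 19.7% were shared with other gene models, chiefly A630019I02Rik.

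Capn3, the muscle calpain that binds titin, was the only protease of the set, with a mean log2 CPM of 6.77. Per kilobase it stood at 5.11, as did Capn1 (a difference of -0.0045), and was 1.31-fold lower than Capn2, both of them calpains of most tissues. With the median coding length the difference from Capn1 was -0.86.

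Where a gene of the set has a relative in other tissues, the distances were large for actin. Per kilobase, Acta1 stood 4.01 above Actc1, the actin of heart and developing muscle, a 16.1-fold difference. It was 5.33 above Actb and 7.62 above Acta2, the actin of smooth muscle and myofibroblasts. Actb and Actg1 shared 35.3% and 57.1% of their words with other gene models and are uncertain. Tpm1 stood 5.41 above Tpm3 and 5.75 above Tpm4 (6.56 with the median coding length), of which 70.4% and 20.5% of words were shared.

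**Figure D3:**
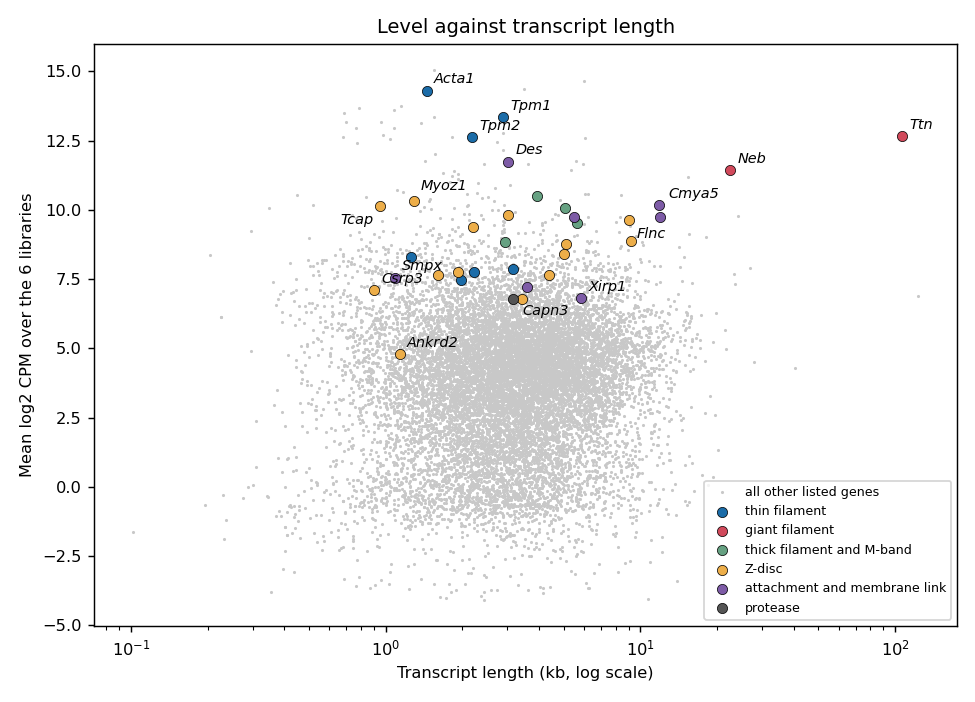
Mean log2 CPM over the 6 libraries against transcript length in kilobases (log scale), with grey points for the other listed genes and coloured points for the 35 genes by role. The set spans lengths from 899 bases (Csrp3) to 106824 bases (Ttn), and both short genes such as Acta1 and the longest, Ttn, reach a mean log2 CPM above 12.

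Transcript length varied 119-fold across the set, and level did not follow it closely. The median length was 3158 bases, against 3139 for all listed genes, and 12 of the 35 transcripts were longer than 5 kb. Across the 35 genes, Spearman's rho between mean log2 CPM and length was 0.23, and across all 13945 genes with a length it was 0.058. Between per-kilobase level and length, rho was -0.45 over the 35 and -0.29 over all, which share the length on both axes. The order by mean log2 CPM and the order per kilobase had a rho of 0.68. Genes are not independent replicates and share the same 6 libraries, so these values describe the table only.

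Most of the transcripts share little or no sequence with other genes. For 24 of the 35, less than 1% of the 31-base words occurred in transcripts of other genes, and for 16 none did. Besides Tmod1 and Cmya5, the largest shares were 6.60% for Des, 5.74% for Nrap, 5.70% for Mybpc1 and 4.45% for Acta1.

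Beside other lists, the set's median per-kilobase level of 6.94 lay between those of fast and slow fibre genes. The median was 12.42 for the 10 fast fibre contractile isoforms, which include myosins and troponins, and 6.45 for the 8 slow fibre isoforms. The 27 listed of 28 other sarcomere genes (Mybpc3 was not listed) had a median of 6.46, close to the 35. The 6 embryonic fibre markers, among them Actc1, had 6.02. The 7 fibroblast markers, at 8.22, stood above the set's median, and the 7 macrophage markers, at 4.75, below it. The endothelial, adipocyte and smooth muscle markers had 3.24, 5.18 and 1.73. Some of the lists hold the same genes, so their medians are not all independent.

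**Figure D4:**
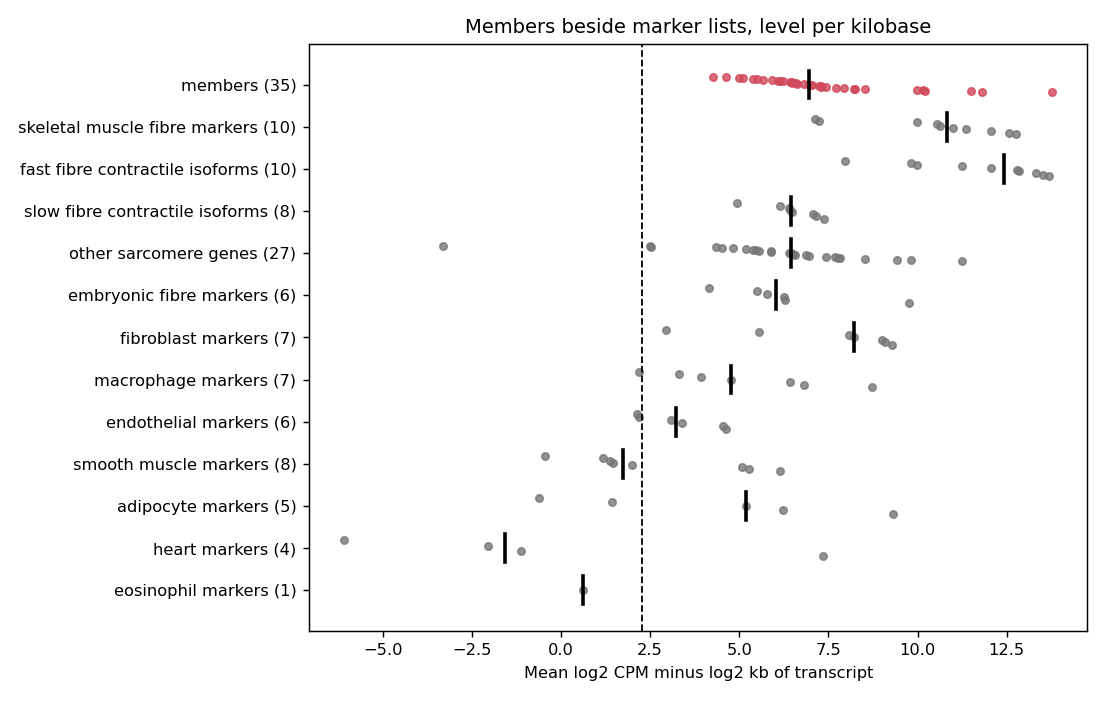
Per-kilobase levels (mean log2 CPM minus log2 kilobases of transcript) of the 35 genes, in red, and of 12 other gene lists, in grey, with the number of listed genes in parentheses, black bars at medians and a dashed line at the median of all listed genes (2.28). Fast fibre isoforms, with a median of 12.42, and skeletal fibre markers, with 10.81, lie above the set's 6.94, and the set itself reaches from 4.25 to 13.77. Some lists share genes, as Myh4 is in both the fast isoforms and the skeletal fibre markers.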

How the data were processed

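Bulk poly(A) RNA with ERCC spike-in was sequenced from 6 libraries. The authors pseudoaligned paired-end reads with kallisto and computed CPM with edgeR. They kept genes above a CPM limit in a minimum number of samples, took logarithms, applied TMM scaling and fitted the genotypes with limma. The labels name the build GRCm39 (mm39). The transcript index is not given in the sources used here, and depth per library is unknown. The deposited table holds, per gene, the authors' mean log2 CPM, used here, and their genotype fold change, test statistics and p-values, which were not used. It gives no value per mouse, so the planned limma fit of the genotypes could not be run.

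Transcript lengths and 31-base words came from GENCODE M21 (GRCm38): 13458 symbols matched directly and 487 through another symbol, 99.5% in all. No coordinates of that build are given for the expression values. Promoter windows were matched by symbol to RefSeq (GRCm38.p6). Levels on a linear scale are 2 to the mean log2 CPM. The genes named are all 35 and genes from lists of relatives and markers, not all of which are reported here. The genes and lists were chosen with earlier results of these data known. The gene pairs, percentile comparison, motif search and word sharing were chosen after the levels had been seen. Python 3.11.15, pandas 2.3.3, numpy 2.4.6, scipy 1.17.1 and matplotlib 3.10.9 were used, and the scripts were tested on simulated data.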

Additional observations from a re-analysis of the deposited data

How the results depend on the processing

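All 35 genes were listed under their own symbols, so allowing older symbols could add none. All 35 are protein-coding, and none has a mean log2 CPM below 4.80. The filters tried therefore removed none of them, and their median mean log2 CPM could not change. Their median percentile of 98.8 was 98.8 (98.7737) among protein-coding genes and 98.6 among genes whose mean log2 CPM was 1 or more. The median per-kilobase level of 6.94 was 6.60 with the longest transcript of any kind, 7.37 with the median length of coding transcripts, and 6.97 without Ttn and Neb. Without Acta1 the combined share of 6.99% was 4.80%. Of 49 per-kilobase differences, a comparison added after seeing the data, 46 kept their direction with the longest transcript and 45 with the median length. In most pairs, the longest transcript of both genes was the coding one already used, so that setting could not turn their direction. With the longest transcript, Pdlim3 minus Pdlim5 turned to -0.25, Pdlim3 minus Pdlim7 to -0.080 and Pdlim7 minus Pdlim5 to -0.17. With the median length, Pdlim3 minus Pdlim5 was -0.66, Pdlim3 minus Pdlim7 -0.79, Ttn minus Neb 1.69 and Tcap minus Ttn -1.35. These settings change only the length divided by. For Ttn and Neb, the median length is far shorter than the coding sequence of the longest transcript. Spearman's rho with the reported order was 0.94 and 0.84, and the largest shifts were 1.44 (Csrp3) and 5.65 (Ttn). The longest transcript changed the length of only Csrp3, Pdlim3, Pdlim7 and Smpx among the 35, so the rho of 0.94 rests on few changed values. The levels are means over libraries with no error. No paired analysis was possible because the table holds no value per mouse, and for the same reason the genotype fit, the fits leaving out each mouse and those with other pseudocounts were not run.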
